A study of Mus musculus with 6 samples.

Results

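The let-7 and miR-98 family was taken from a table of 1155 miRNA rows as every row whose name begins with Mirlet7, host transcripts left out, together with Mir98. This gave 10 rows: Mirlet7a-1, Mirlet7a-2, Mirlet7b, Mirlet7c-1, Mirlet7c-2, Mirlet7e, Mirlet7f-1, Mirlet7f-2, Mirlet7g and Mir98. All 10 passed the filter on low counts and were tested. Other let-7 hairpins of the mouse were not analysed here.

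The libraries are small RNA libraries of cultured mouse embryonic fibroblasts, primary connective tissue cells grown from embryos. Of these, 3 came from wild-type cells (WT) and 3 from Fbxw7 knockout cells (Fbxw7 KO). The sample labels name no treatment, time, embryonic age, strain or means of deletion. They leave unsaid if replicates are distinct embryos or cultures, so p-values measure the spread between these libraries only, which may be technical. The Fbxw7 transcript was not analysed here.

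let-7 miRNAs bind messenger RNAs through the seed near their 5′ end and lower the output of growth genes such as Hmga2, Ras genes and Lin28 itself. Pluripotent cells block their maturation through LIN28, which binds the loop of the precursor, and differentiated cells such as fibroblasts hold much mature let-7. Myc, a substrate that the FBXW7 ubiquitin ligase marks for degradation, is known to repress several let-7 genes.

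The mature sequences are shown because they decide which reads a row can hold. The 10 hairpins of RefSeq (GRCm38.p6) have the same coordinates as the count table on mm10. Their 5p arms, the arms from which the abundant let-7 miRNAs are made, give 7 distinct sequences of 22 bases, with the seed (bases 2 to 8) in capitals.
let-7a-5p: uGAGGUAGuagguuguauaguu
let-7b-5p: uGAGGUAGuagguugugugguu
let-7c-5p: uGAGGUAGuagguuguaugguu
let-7e-5p: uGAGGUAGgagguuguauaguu
let-7f-5p: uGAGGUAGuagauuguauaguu
let-7g-5p: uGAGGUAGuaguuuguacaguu
miR-98-5p: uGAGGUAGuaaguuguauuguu

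All 7 share the seed GAGGUAG. Outside it, and counted from 1 at the 5′ end with the let-7a-5p base first, let-7c-5p differs by A19G, let-7e-5p by U9G and let-7f-5p by G12A. The let-7b-5p sequence differs by A17G and A19G, let-7g-5p by G12U and U18C, and miR-98-5p by G11A and A19U. No 5p sequence is thus more than 2 bases away from let-7a-5p.

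The 3p arms, which are usually the minor product of these hairpins, vary more. They are shown for the 6 rows whose 5p arm has a copy in another hairpin, with bases 2 to 8 in capitals.
let-7a-1-3p: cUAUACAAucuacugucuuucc
let-7a-2-3p: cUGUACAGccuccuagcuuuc
let-7c-1-3p: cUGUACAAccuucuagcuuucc
let-7c-2-3p: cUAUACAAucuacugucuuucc
let-7f-1-3p: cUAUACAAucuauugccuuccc
let-7f-2-3p: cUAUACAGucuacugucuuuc

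The let-7a-5p sequence lies in both Mirlet7a-1 and Mirlet7a-2, let-7c-5p in Mirlet7c-1 and Mirlet7c-2, and let-7f-5p in Mirlet7f-1 and Mirlet7f-2. On the 3p side let-7a-1-3p and let-7c-2-3p are identical. Among the 1005 hairpins searched, Mirlet7a-1 and Mirlet7c-2 therefore have 0 arms of their own. Mirlet7a-2, Mirlet7c-1, Mirlet7f-1 and Mirlet7f-2 have 1 each, the 3p arm, and Mirlet7b, Mirlet7e, Mirlet7g and Mir98 have 2 each.

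Whole hairpins show how far the copies reach. Capitals mark the longest stretch that Mirlet7a-2 shares with Mirlet7a-1 (23 bases, the 5p arm and 1 base more), and the longest that Mirlet7a-1 and Mirlet7c-2 share with each other (26 bases around the 3p arm).
Mirlet7a-2: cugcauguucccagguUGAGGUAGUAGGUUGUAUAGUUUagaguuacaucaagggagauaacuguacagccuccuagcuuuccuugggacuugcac
Mirlet7a-1: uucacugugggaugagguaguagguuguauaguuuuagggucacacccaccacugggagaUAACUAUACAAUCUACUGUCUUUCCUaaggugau
Mirlet7c-2: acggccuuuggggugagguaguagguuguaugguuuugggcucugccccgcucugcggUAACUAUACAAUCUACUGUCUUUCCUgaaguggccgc

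The counting left out reads with several alignments by default, so a read that is exactly let-7a-5p, let-7c-5p or let-7f-5p could not be assigned to a row. The rows Mirlet7a-2, Mirlet7c-1, Mirlet7f-1 and Mirlet7f-2 are therefore no measure of mature let-7a, let-7c or let-7f. Both arms of a hairpin fall into 1 count, and the arms were not analysed separately here.

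The order of levels followed the number of arms a row has to itself. On the per-length scale of the deposited FPKM, rows with 2 such arms lay between 10717 and 305938, rows with 1 between 1313 and 8935, and rows with 0 between 156 and 568, with no overlap between these classes in any library. The 4 rows with 2 arms held 95.1% of the family's counts, the 4 rows with 1 held 4.73% and the 2 rows with 0 held 0.203%. Whether this order follows the transcription of the hairpins was not tested.

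**Figure D1:**
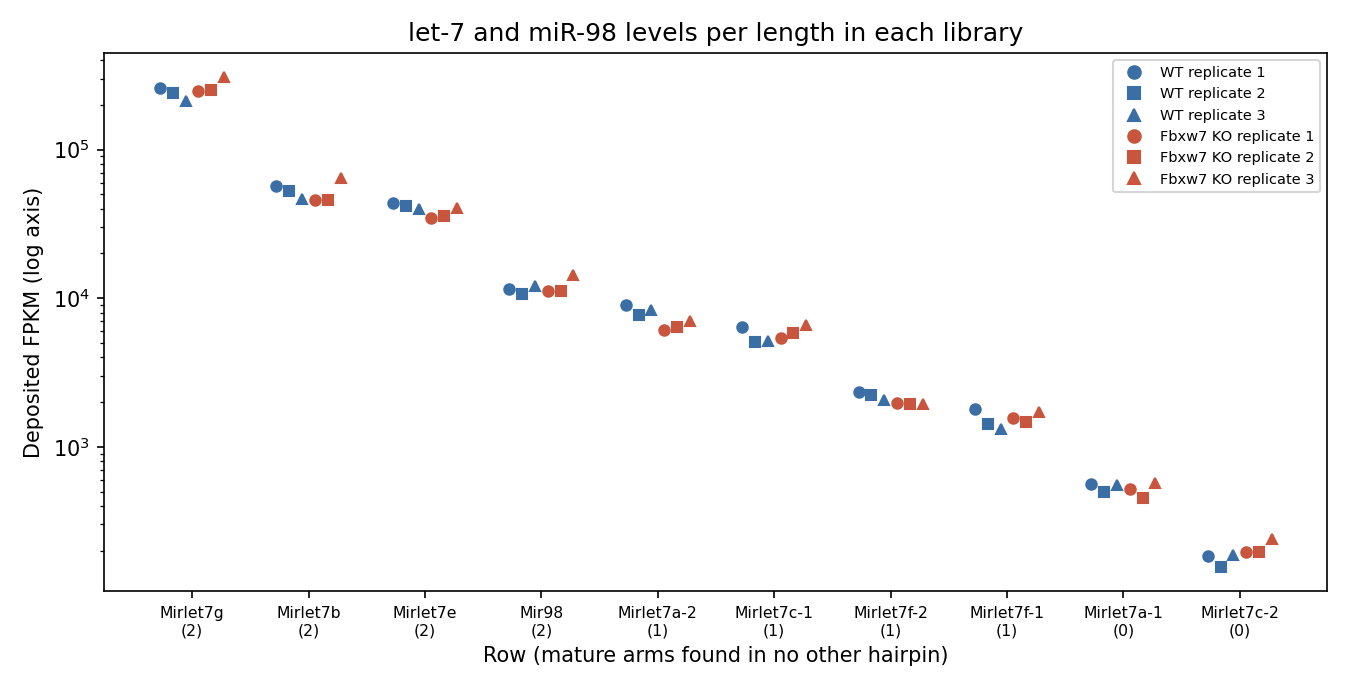
Deposited FPKM (log axis) of the 10 rows in each of the 6 libraries, ordered by mean, with the number of mature arms found in no other hairpin in brackets. Mirlet7g stands highest in every library, and the 2 rows without an arm of their own, Mirlet7a-1 and Mirlet7c-2, stand lowest.

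Mirlet7g led in WT with 237552 ± 24454 FPKM (SD, n = 3), followed by Mirlet7b with 51905 ± 5084 and Mirlet7e with 41848 ± 1795. Mir98 had 11433 ± 657, Mirlet7a-2 had 8302 ± 629 and Mirlet7c-1 had 5554 ± 775 FPKM. Mirlet7f-2 (2213 ± 144), Mirlet7f-1 (1511 ± 256), Mirlet7a-1 (535 ± 33.5) and Mirlet7c-2 (177 ± 17.9) closed the order. In WT no pair of neighbours in this order overlapped between libraries. The order was the same in Fbxw7 KO, where Mirlet7a-2 (6484 ± 463 FPKM) and Mirlet7c-1 (5939 ± 582) did overlap.

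The libraries held 2932439 to 5019700 counts. The first principal component of all tested rows (65.2% of the variance) separated the genotypes. Scores were −6.81 to −6.19 in WT and 6.46 to 6.61 in Fbxw7 KO. Fbxw7 KO replicate 3 stood apart on the second component (17.5% of the variance). Its score there was −6.45 against 2.90 and 3.55 for the other KO libraries. Of 10 listed fibroblast and mesenchymal markers 8 rows are in the table, and 1 of these, Mir22, was at 0 counts. The 8 rows held 51.3 to 52.3% of counts in WT and 52.0 to 55.3% in Fbxw7 KO. Of the 6 tested, 1 was called lower and 2 higher in Fbxw7 KO, beside 10.2% and 15.2% of all tested rows. The blood cell, epithelial, neuronal and muscle lists each held at most 0.0405% of counts in any library. Of 11 pluripotent cell rows, 7 were at 0 counts, and the list held at most 5.33e-05% of counts in any library. In bulk libraries, fewer cells of a type and less RNA per cell cannot be told apart.

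The share of counts held by the 10 rows together overlapped between genotypes. Exact let-7a-5p, let-7c-5p and let-7f-5p reads are not in this sum, so it is no measure of all mature let-7. WT replicates 1 to 3 gave the 10 rows 3.39%, 3.10% and 3.04% of all counts. Fbxw7 KO replicates 1 to 3 gave them 3.15%, 3.26% and 4.03%. The groups overlapped, and replicate 3 of Fbxw7 KO was the highest library. Its 95% Wilson interval was 4.01 to 4.05%, and that of the lowest library, WT replicate 3, was 3.03 to 3.06%. Such intervals cover counting error only, since reads are not independent molecules. The WT mean was 3.18% ± 0.187 and the Fbxw7 KO mean 3.48% ± 0.482 (SD, n = 3), a difference of 0.298 percentage points that became 0.0216 without Fbxw7 KO replicate 3. No p is given for this sum, because the members were chosen with results of these data known.

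Between genotypes, 1 of the 10 rows passed the test: Mirlet7a-2, lower in Fbxw7 KO. That call lay close to the threshold and ended in 10 of 17 alternative processings. The other 9 did not pass the test, and negative log2 fold changes were found in 5 of the 10 rows, beside 46.6% of all tested rows (edgeR quasi-likelihood test, Benjamini-Hochberg adjusted p under 0.05 over 283 tested rows). Over all tested rows 25.4% passed, 10.2% as lower and 15.2% as higher, so 1 call among 10 is near or below the background. The family's median log2 fold change was 0.01, beside 0.05 over all tested rows, and its members ranged from −0.38 to 0.24. At an unadjusted p under 0.05 the same count of 1 was found, beside 35.7% of all tested rows. The KO and WT libraries did not overlap in 4 of the 10 rows, beside 43.8% of all tested rows. In 3 of these, Mirlet7a-2, Mirlet7e and Mirlet7f-2, the KO libraries were lower (20.1% of all tested rows), and in Mirlet7c-2 they were higher (23.7%).

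Mirlet7g, the row with the largest part of the family's counts, lies in an intron of Wdr82 (chromosome 9, 106178840 to 106178927, plus strand). On the TMM-scaled CPM scale used from here on, it had 22428, 22109.6 and 18685 in WT replicates 1 to 3 and 21593, 22415 and 26502 in Fbxw7 KO replicates 1 to 3. The groups overlapped, with WT replicate 3 lowest and Fbxw7 KO replicate 3 highest. The means were 21074 ± 2075 and 23503 ± 2629 CPM. The log2 fold change was 0.16 with an SE of 0.137 (edgeR adjusted p = 0.438), or 0.07 when replicate 3 of Fbxw7 KO was left out.

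Mirlet7b, on chromosome 15 (85707319 to 85707403, plus strand) in an exon of the long noncoding RNA gene Lncppara, had 4705, 4677 and 3962 CPM in WT and 3803, 3925 and 5401 in Fbxw7 KO. Replicates 1 and 2 of Fbxw7 KO lay below all WT libraries and replicate 3 above all of them. The log2 fold change was −0.02 with an SE of 0.166 (edgeR adjusted p = 0.931), or −0.19 when replicate 3 of Fbxw7 KO was left out (adjusted p = 0.291). Mirlet7c-2, 621 bases upstream in the same gene and without an arm of its own, had only 15.5 to 17.9 CPM in WT and 18.3 to 22.5 in Fbxw7 KO. These groups did not overlap, yet the row rested on 421 counts in all and did not pass (log2 fold change 0.24, SE 0.187, adjusted p = 0.389).

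Mirlet7e lies in an intron of Spaca6 on chromosome 17 (17830352 to 17830444, plus strand). Its CPM values were 3977, 4056 and 3739 in WT and 3163, 3339 and 3691 in Fbxw7 KO. Every KO library lay below every WT library, by a small margin for replicate 3 of each genotype. The means were 3924 ± 165 and 3398 ± 269 CPM, and the log2 fold change of −0.21 (SE 0.122) did not pass the test (edgeR adjusted p = 0.238).

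Mir98 and Mirlet7f-2 lie 785 bases apart in an intron of Huwe1, a ubiquitin ligase gene on chromosome X (Mirlet7f-2 at 151912346 to 151912428 and Mir98 at 151913214 to 151913321, both plus strand). Mir98 had 1224, 1208 and 1301 CPM in WT and 1191, 1222 and 1513 in Fbxw7 KO. These groups overlapped with a log2 fold change of 0.07 and an SE of 0.134 (edgeR adjusted p = 0.725). It became −0.03 when replicate 3 of Fbxw7 KO was left out. Mirlet7f-2 had 191, 193 and 172 CPM in WT and 161, 163 and 158 in Fbxw7 KO. All KO values lay below all WT values, with a log2 fold change of −0.20 (SE 0.137) that did not pass (adjusted p = 0.296).

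Mirlet7a-2, the row that passed, lies in an intron of the noncoding gene 3110039I08Rik on chromosome 9 (41536716 to 41536811, plus strand). It had 840.1, 769 and 799 CPM in WT and 574, 617 and 661 in Fbxw7 KO. The highest KO library lay below the lowest WT library. The means were 803 ± 35.6 and 618 ± 43.4 CPM, and the log2 fold change was −0.38 with an SE of 0.116 (edgeR adjusted p = 0.0419). Since its only arm of its own is let-7a-2-3p, shown above, the lower count is not a measure of mature let-7a-5p. Nor can it be read as let-7a-2-3p alone. The rows without an arm of their own still held 1566 counts, so reads other than exact own arms were counted too. Which reads make up the Mirlet7a-2 row was not analysed.

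The call of Mirlet7a-2 lay close to the threshold. It held in 7 of 17 alternatives and ended in 10, with log2 fold changes of −0.51 to −0.33 and adjusted p from 0.0123 to 0.240. Leaving out WT replicate 1 gave adjusted p = 0.103, WT replicate 2 gave 0.129, Fbxw7 KO replicate 1 gave 0.171 and Fbxw7 KO replicate 2 gave 0.113 (edgeR). Without Fbxw7 KO replicate 3, the library that stood apart, the adjusted p was 0.0255.

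**Figure D2:**
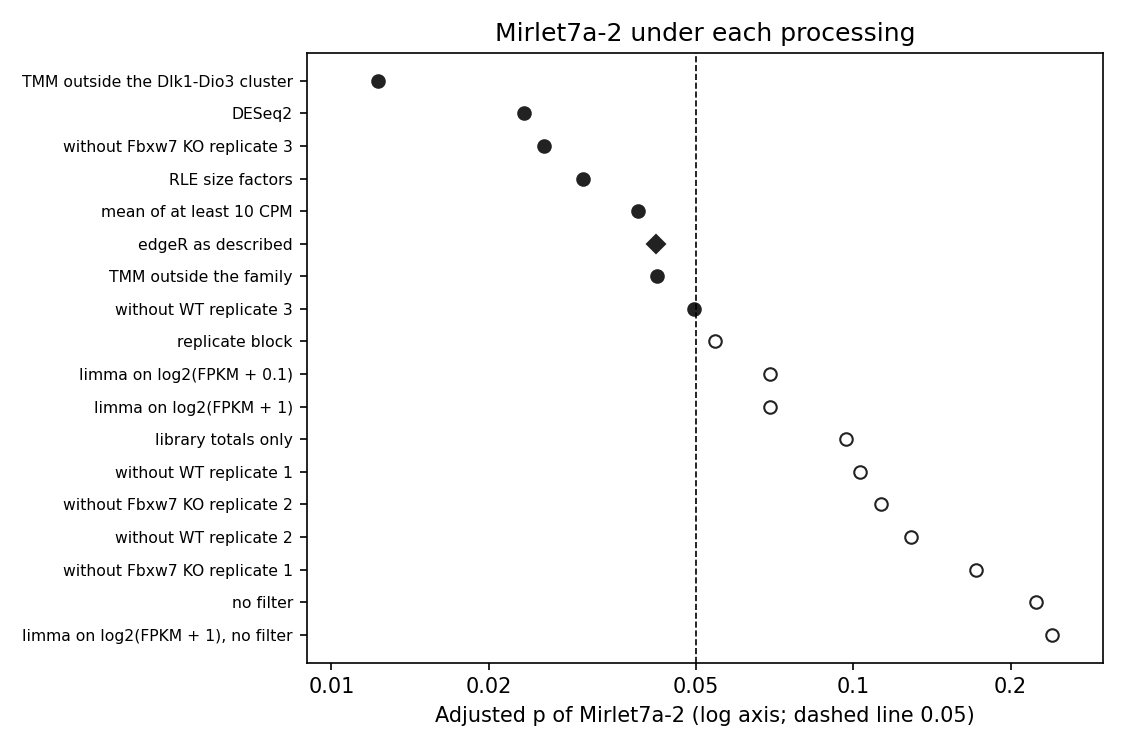
Adjusted p of Mirlet7a-2 (log axis) under the edgeR test as described (diamond) and 17 alternatives (circles), filled where it lies under the dashed line at 0.05. The log2 fold change was negative under all 17, and the adjusted p lay on both sides of the line.

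The remaining rows did not pass. Mirlet7c-1, in an intron of the host transcript Mir99ahg on chromosome 16 (77599657 to 77599750, plus strand), had 593, 495 and 488 CPM in WT and 499, 556 and 607 in Fbxw7 KO, and the groups overlapped (log2 fold change 0.08, edgeR adjusted p = 0.722). Mirlet7f-1 and Mirlet7a-1 lie 261 bases apart on chromosome 13 (48537829 to 48537917 and 48538179 to 48538272, minus strand) in an exon of the lincRNA gene 6720427I07Rik. Mirlet7f-1 had 117 to 157 CPM in WT and 133 to 150.4 in Fbxw7 KO (0.05, adjusted p = 0.866). Mirlet7a-1 had 48.7 to 52.0 CPM in WT and 42.8 to 52.5 in Fbxw7 KO (−0.08, adjusted p = 0.750).

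**Figure D3:**
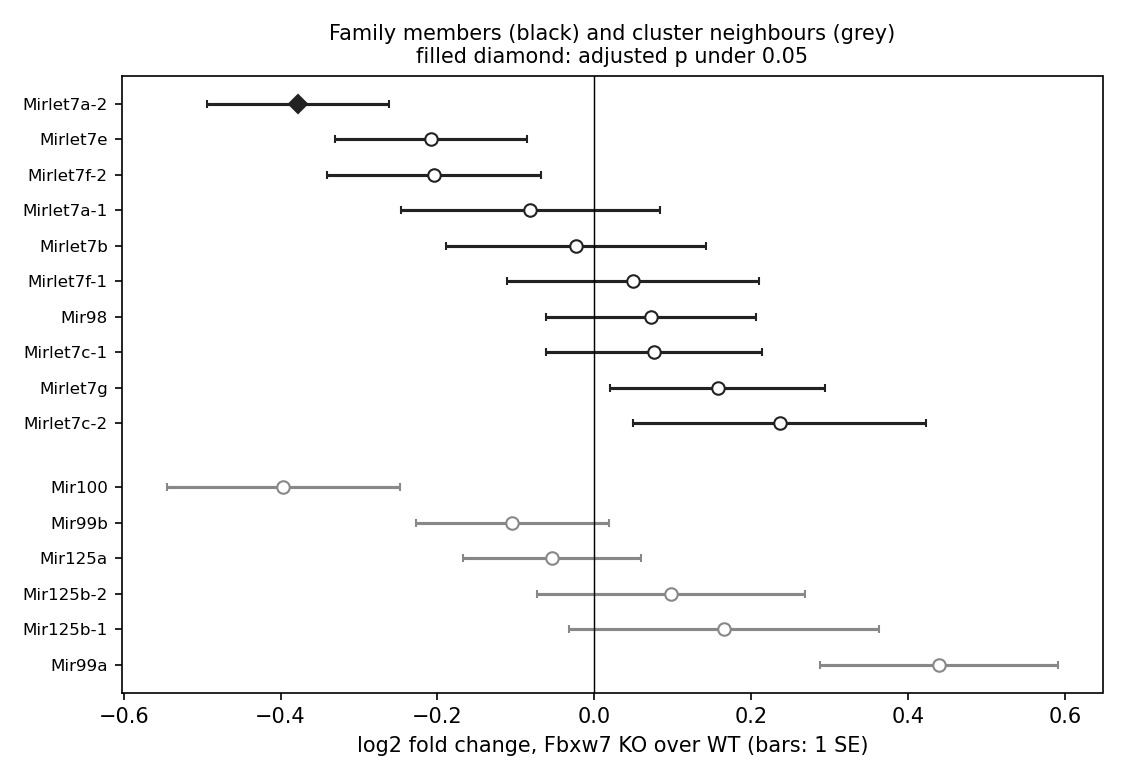
log2 fold change (Fbxw7 KO over WT) with 1 SE for the 10 family rows (black) and the 6 neighbouring miR-99/100 and miR-125 rows (grey), with a filled diamond where the adjusted p is under 0.05. Mirlet7a-2 at −0.38 is the only filled symbol, and Mir100 at −0.40 and Mir99a at 0.44 lie farthest from 0 among the neighbours.

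Ratios within a library are free of the choice of scaling, and Mirlet7g was taken as the reference after its values were seen. For each 1000 counts of Mirlet7g, Mirlet7a-2 had 37.5, 34.8 and 42.7 counts in WT and 26.6, 27.5 and 24.9 in Fbxw7 KO. Mirlet7e had 177, 183 and 200.1 in WT and 146, 149 and 139 in Fbxw7 KO. Mirlet7f-2 had 8.51, 8.74 and 9.18 in WT and 7.45, 7.29 and 5.96 in Fbxw7 KO.

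These 3 ratios and that of Mirlet7b (210 to 212 in WT, 175 to 204 in Fbxw7 KO) were lower in every KO library than in any WT library. Each had an exact 2-sided permutation p of 0.1, the smallest that 3 against 3 libraries can give. After Benjamini-Hochberg adjustment over the 9 ratios this permutation p was 0.225. Such a p only restates the lack of overlap. The 9 ratios share the same denominator, so they are not independent of each other. Mirlet7g, that denominator, had a log2 fold change of 0.16, and Mirlet7b itself had −0.02. A lower ratio is therefore not by itself a lower level of the row. The mean ratio in Fbxw7 KO was 0.688 times that in WT for Mirlet7a-2, 0.775 for Mirlet7e, 0.783 for Mirlet7f-2 and 0.876 for Mirlet7b. Over all 282 other tested rows, the ratio to Mirlet7g was lower without overlap in 26.6% and higher in 14.2%. The ratios of Mirlet7c-1, Mirlet7c-2, Mirlet7f-1, Mirlet7a-1 and Mir98 overlapped between genotypes.

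**Figure D4:**
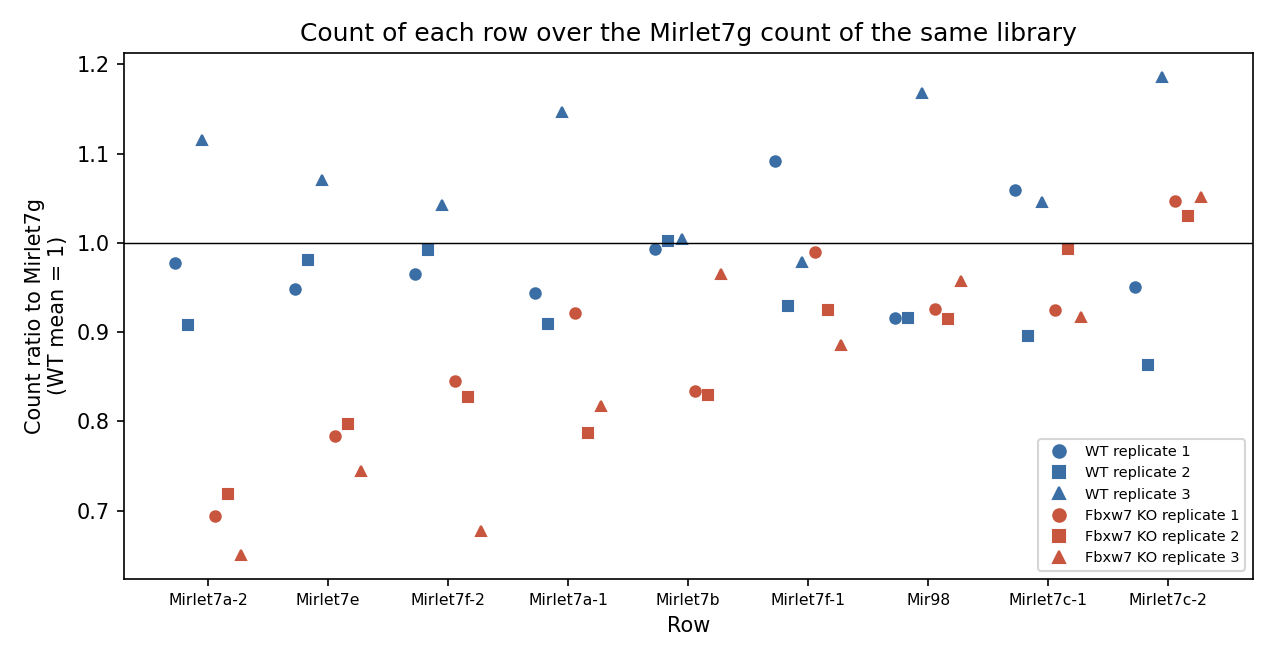
Count of each row divided by the Mirlet7g count of the same library, on a linear axis with the WT mean set to 1, for 9 rows and 6 libraries. Mirlet7a-2, Mirlet7e, Mirlet7f-2 and Mirlet7b lie lower in all 3 Fbxw7 KO libraries than in any WT library, and the other 5 rows overlap.

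Read as a composition, Mirlet7g made up 65.6%, 65.6% and 63.7% of the family's counts in WT replicates 1 to 3 and 69.2%, 69.1% and 68.4% in Fbxw7 KO replicates 1 to 3. The Mirlet7e share was 12.1% ± 0.564 in WT and 9.99% ± 0.409 in Fbxw7 KO, and the Mirlet7b share 13.7% ± 0.191 and 12.7% ± 1.03 (SD, n = 3). The Mirlet7a-2 share was 2.49% ± 0.222 in WT and 1.82% ± 0.101 in Fbxw7 KO, and the Mirlet7f-2 share 0.572% ± 0.0134 and 0.476% ± 0.0592. The shares of 4 of the 10 rows did not overlap between genotypes, higher in Fbxw7 KO for Mirlet7g and lower for Mirlet7e, Mirlet7a-2 and Mirlet7f-2. Divided by the same family total, 38.5% of all tested rows did not overlap. The shares add up to the whole, so they are not independent of each other. They are shares of the counted reads, which lack exact let-7a-5p, let-7c-5p and let-7f-5p reads. Mirlet7b in Fbxw7 KO replicate 3 (13.9%) lay above all WT libraries.

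At 3 loci a let-7 hairpin lies beside hairpins of the miR-99/100 and miR-125 families, and miR-125 is the mammalian form of lin-4, which acts with let-7 in developmental timing. Of these 6 neighbours 0 rose and 0 fell by the edgeR test, beside 25.4% of all tested rows called. At an unadjusted p under 0.05 there were 2, Mir99a and Mir100, beside 35.7% of all tested rows. DESeq2 also called 0, but 7 of the 17 alternatives called 1 or 2 of them, Mir99a or Mir100 in each case. Their median log2 fold change was 0.02. The mature entries of RefSeq give the same miR-125b-5p sequence for Mir125b-1 and Mir125b-2, so the limit on shared arms holds for this pair of rows too. The hairpin of Mir125b-2 was not searched.

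On chromosome 9, Mir100 (41531425 to 41531504) and Mir125b-1 (41581926 to 41582002) flank Mirlet7a-2, with gaps of 5211 and 45114 bases. Mir100 had 26482, 32366 and 31307 CPM in WT and 20789, 20834 and 26877 in Fbxw7 KO. An exon of the lincRNA gene Gm48742 covers Mir100 on the opposite strand, and strand was ignored in the counting. Replicate 3 of Fbxw7 KO lay just above WT replicate 1 and the other KO libraries below all WT libraries. The log2 fold change was −0.40 with an SE of 0.149 (edgeR adjusted p = 0.0850), beside −0.38 for Mirlet7a-2. It passed in 2 of 17 alternatives, when replicate 3 of Fbxw7 KO was left out (−0.52, adjusted p = 0.0108) and with TMM factors from rows outside the Dlk1-Dio3 cluster (−0.53, adjusted p = 0.0371). Over the other 5 leave-outs its edgeR adjusted p was 0.0920 to 0.265. Mir125b-1 had 2952, 3696 and 5025 CPM in WT and 4090, 4041 and 4960 in Fbxw7 KO, with overlap (0.17, adjusted p = 0.577). Its log2 fold change was 0.0010 without WT replicate 1 and 0.38 without WT replicate 3, and it passed in 0 of 17 alternatives.

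On chromosome 16, Mir99a (77598936 to 77599000) lies 656 bases from Mirlet7c-1 and Mir125b-2 (77646273 to 77646343) lies 46522 bases from it. Mir99a had 4165, 5097 and 3721 CPM in WT and 6290.4, 5987 and 5329 in Fbxw7 KO, every KO library above every WT library. Its log2 fold change of 0.44 (SE 0.152) did not pass (edgeR adjusted p = 0.0692). It passed in 6 of 17 alternatives, among them library totals only (0.50, adjusted p = 0.0215), limma on FPKM (0.47, adjusted p = 0.0398 at a pseudocount of 1) and without Fbxw7 KO replicate 3 (0.52, adjusted p = 0.0238). Over the other 5 leave-outs its edgeR adjusted p was 0.0513 to 0.203. Mirlet7c-1 beside it stood at 0.08 and Mir125b-2 at 0.10 (adjusted p = 0.722 for both). The difference between these neighbours was not tested.

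On chromosome 17, Mir99b (17830188 to 17830257) and Mir125a (17830812 to 17830879) lie 94 and 367 bases from Mirlet7e. Mir99b had 14301, 16768 and 16646 CPM in WT and 14880.3, 14797 and 14706 in Fbxw7 KO. Mir125a had 3809, 3739 and 3715 CPM in WT and 3502, 3592 and 3759 in Fbxw7 KO. Both overlapped between genotypes, with log2 fold changes of −0.10 (edgeR adjusted p = 0.570) and −0.05 (adjusted p = 0.759).

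Among 128 other rows with a mean of at least 100 CPM, the profiles over the 6 libraries most like that of the summed family were those of Mir26b, Mir872 and Mir130a. The root mean square difference of their centred log2 CPM from the family's was 0.0566, 0.0830 and 0.0857. Mirlet7g made up 63.7 to 69.2% of the family's counts in the 6 libraries, so the summed profile is mostly that of Mirlet7g. Mir26b had 3483, 3459 and 2943 CPM in WT and 3519, 3438 and 3953 in Fbxw7 KO, and like the family it was lowest in WT replicate 3 and highest in Fbxw7 KO replicate 3.

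The hairpins were also read for GGAG, the tetranucleotide that the zinc knuckles of LIN28 bind in let-7 precursors. Read on the RNA's own strand only, the letters GGAG lie between the 5p and 3p arms in 7 of the 10 hairpins and are not in those of Mirlet7b, Mirlet7c-2 and Mir98. Mirlet7c-1 and Mirlet7e hold them once more elsewhere. Of the 288 RefSeq hairpins of 83 to 108 bases, the range of the members, 44.8% hold GGAG anywhere. In the Mirlet7a-2 hairpin printed above, GGAG starts at base 54. A match is a description of the letters and no measure of binding.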

How the data were processed

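The deposited table holds read counts per miRNA gene name. Per the file headers the authors counted with featureCounts 1.6.4, with strand ignored and without options for reads with several alignments or over 2 features, which are then left out. Per the submitters' processing notes reads were placed on mm10, and deepTools, Cufflinks 2.2.1, SAMtools 1.5 and TopHat2 2.1.1 are listed without their roles. Trimming is not given in the sources used here. The authors also deposited FPKM values, used for per-length levels and in alternatives.

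The count test was run in edgeR 4.0.16 under R 4.3.3 (TMM, glmQLFit with robust estimation, glmQLFTest) with no term beside genotype. Filtering by filterByExpr, with a minimum count of 10 and a minimum total of 15, left 283 of 1155 rows. Adjusted p-values are Benjamini-Hochberg values over these. The SE comes from the F statistic, and CPM uses TMM-scaled totals. The test was checked on simulated counts. Alternatives used other scalings and filters, DESeq2 1.42.0, limma 3.58.1 on log2(FPKM + 1) or log2(FPKM + 0.1), a replicate block and leave-outs. TMM factors from rows outside the family and the ratios to Mirlet7g were added after seeing the data.

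Host genes come from GENCODE M21 and sequences from RefSeq, whose hairpin table may not be complete. All 10 members and the 6 neighbours are named by rule, with the 3 rows of most similar profile. The members and lists were chosen with earlier results of these data known.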

Additional observations from a re-analysis of the deposited data

How the results depend on the processing

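Over 17 alternatives, 149 of the 170 fold changes of family rows kept their direction and side of the threshold. The count of called members was 1 in 7 alternatives and 0 in 10. It was 0 with library totals only, with no filter, with limma on FPKM at either pseudocount and without a filter, and with the replicate block, and 0 to 1 over the leave-outs. The cause was not tested. Small log2 fold changes turned sign. Mirlet7b became 0.0334 with library totals only and 0.000971 with no filter. With TMM factors from rows outside the Dlk1-Dio3 cluster, Mirlet7f-1 became −0.0777, Mirlet7c-1 −0.0515, Mir98 −0.0581 and Mir125b-2 −0.0303, as the median of all tested rows moved to −0.0745. Over the leave-outs Mirlet7b ranged from −0.193 to 0.0646, Mirlet7f-1 from −0.0565 to 0.170, Mir98 from −0.0349 to 0.133 and Mir125b-2 from −0.0510 to 0.228. The log2 ratio to Mirlet7g ranged from −0.0264 to 0.203 for Mirlet7c-2 and from −0.150 to 0.0254 for Mir98.

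Of the cluster neighbours 1 was called, in place of 0, with library totals only, TMM outside the Dlk1-Dio3 cluster, limma on FPKM in all 3 forms and the replicate block (Mir99a, edgeR adjusted p = 0.0388), and 0 to 2 over the leave-outs. The family's share of counts differed by 1.09 percentage points when Mir21a and Mir143 were left out of the total. That smaller total raises the share in every library, so the value is not on the scale of the 0.298 above. Over the leave-outs the difference was 0.0216 to 0.463.

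Same-numbered WT and KO libraries had correlations of −0.06, 0.14 and 0.16 between their deviations from the group means over 283 rows. Pairs of unlike number ranged from −0.18 to 0.15. Whether same-numbered libraries share an embryo or culture was not tested. With the replicate block 76 rows were called in place of 72, and Mirlet7a-2 had adjusted p = 0.0544 (edgeR). All rows called numbered 34 without Fbxw7 KO replicate 2, 35 without WT replicate 2 and 78 without Fbxw7 KO replicate 3. The other leave-outs gave 42 to 66.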
